A study of Homo sapiens with 6 samples.

Results

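The cytosolic ribosomal protein genes encode the protein parts of the 60S large and the 40S small ribosomal subunit. They were taken from the deposited gene table by symbol, as the RPL and RPS names and RPSA, RPLP0, RPLP1 and RPLP2, without pseudogenes, kinases and several further genes that share the prefix, so they are not every cytosolic ribosomal protein gene. This gave 79 genes, 48 of the large and 31 of the small subunit, among 20668 genes in all. All 79 passed the filter on low counts. They were measured by RNA-seq in SH-SY5Y, an established human neuroblastoma cell line. The 6 libraries came from untreated cells of 2 genotypes, 3 from a DNAJC12 knockout (KO) made with CRISPR/Cas9 and 3 from wild type (WT). DNAJC12 encodes a J-domain co-chaperone, and the series names cell invasion as the question behind the knockout. Whether the replicates were independent cultures or KO clones is not stated, nor where the guide cut. The p-values therefore rest on a spread among libraries that could be purely technical.

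Ribosomal proteins assemble on ribosomal RNA in the nucleolus, and cells make them in nearly equal amounts, since unassembled copies are degraded. Their mRNAs are short, abundant and stable, and in vertebrates most begin at a C followed by an unbroken run of pyrimidines, the 5′ terminal oligopyrimidine (TOP) motif. Through this motif mTOR signalling and the RNA-binding protein LARP1 set how much of the pool is translated and how stable it is. A shortage of single ribosomal proteins sets free a complex that holds back MDM2 and so stabilises p53.

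The starts of several members are shown because the TOP motif is the sequence feature that the group shares. Each line gives the 10 bases before and the 20 bases after the annotated start, 5′ to 3′ on the gene's strand, from RefSeq on GRCh38.p14. Capitals mark the longest tract found, a C followed by at least 4 further C or T letters whose first base lies within 10 bases of the start. The first 4 genes were higher in KO, RPS4X was higher with no such tract, and RPL39, RPL35 and RPL7L1 did not pass the test.
RPS12, chr6:132814559-132814588, plus strand: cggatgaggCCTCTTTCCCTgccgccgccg
RPL36A, chrX:101391001-101391030, plus strand: ctcgcggtttCTTTCTTTCCgcgccgatag
RPL26, chr17:8383174-8383203, minus strand: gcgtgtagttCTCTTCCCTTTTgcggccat
RPS24, chr10:78033853-78033882, plus strand: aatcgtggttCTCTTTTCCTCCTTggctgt
RPS4X, chrX:72277229-72277258, minus strand: ctccagccccaatttctacgcgcaccggaa
RPL39, chrX:119791611-119791640, minus strand: ccgccagCTTCCCTCCTCTTCCTTTCTCCg
RPL35, chr9:124861938-124861967, minus strand: cgcctaCTTCCTCTTTCCCTCggagcgggc
RPL7L1, chr6:42879606-42879635, plus strand: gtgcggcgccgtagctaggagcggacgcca

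The table of promoters held 63 of the 79 members. On the gene's own strand, 55 of them (87.3%) carried such a tract, against 33.3% of all 27305 promoters in the table. Tracts of at least 8 letters were present in 45 members (71.4%), against 8.82% of all promoters. Members with a tract had a median log2 fold change of 0.26. Of these 55, 41 were called higher in KO at an adjusted p of 0.05, against 14.5% of all genes tested. The 8 without one also had a median of 0.26, with 4 of 8 called higher. The 16 members missing from the promoters had a median of 0.23, with 11 called higher. The annotated start need not be the start used in these cells, so these are letters in a window and not measured mRNA ends.

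Library totals lay between 19321842 and 21869659 counts, and each library held between 1242946 and 1652931 counts on the members. The targeted gene DNAJC12 had 5.91, 5.87 and 4.85 CPM (counts scaled to the library total, with TMM factors) in KO, against 23.0, 21.4 and 20.04 CPM in WT. Markers of the sympathoadrenal lineage were present, with a summed level of 1980 to 2158 CPM in KO and 2503 to 2627 CPM in WT over 6 of 6 genes. Of 5 Schwann lineage markers 4 were in the table, summing to 7.22 to 8.26 CPM in KO and 7.78 to 9.96 CPM in WT, and SOX10 was not among them. The 6 fibroblast markers summed to 495 to 643 CPM in KO and 627 to 695 CPM in WT. Sums follow the most abundant genes, and single markers went both ways. At an adjusted p of 0.05, 2 sympathoadrenal markers were higher in KO and 3 lower, and 2 fibroblast markers were higher and 2 lower. Of the 4 Schwann lineage markers 0 were higher and 1 lower. Over all genes tested 14.5% were higher and 11.5% lower. The median log2 fold change was -0.18 for the sympathoadrenal, -0.11 for the Schwann lineage and 0.19 for the fibroblast markers. The part of these differences in the results below was not tested. In bulk RNA, a change in the make-up of the cells and a change in RNA per cell cannot be told apart.

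Ribosomal protein genes were higher in KO than in WT, by a small and similar amount across both subunits. Of the 79 members 56 rose, 1 fell (RPL39L) and 22 did not pass, at an adjusted p of 0.05 by edgeR's quasi-likelihood test with Benjamini-Hochberg adjustment over 16403 genes. Over all genes tested 14.5% were called higher and 11.5% lower, 26.0% in all. In the large subunit 32 of 48 rose and 1 fell, and in the small subunit 24 of 31 rose. The median log2 fold change (KO over WT) was 0.25 for the large and 0.26 for the small subunit, against 0.00 over all genes. The median fold was 1.19 and the highest 1.41. The log2 fold change lay above 0 for 78 of 79 members, including the 22 that did not pass, and within 0.1 of the members' median for 58 of them.

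The order of the libraries showed the same direction. The 3 KO values lay wholly above the 3 WT values for 66 members, against 21.7% of all genes tested, and wholly below for 1, against 20.1%. For 12 members the genotypes overlapped. Leaving out WT replicate 2 left 30 members higher, against 11.1% of all genes in that fit, and leaving out KO replicate 3 left 34, against 10.5% of them. Leaving out KO replicate 2 raised the number to 74, against 14.5%, and leaving out KO replicate 1 lowered it to 41, against 15.6%. With library size alone 38 were higher, against 12.5% of all genes, and with length-corrected transcript counts 40, against 10.4%. The median log2 fold change stayed between 0.20 and 0.31 in these 6 fits with 1 library left out.

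**Figure D1:**
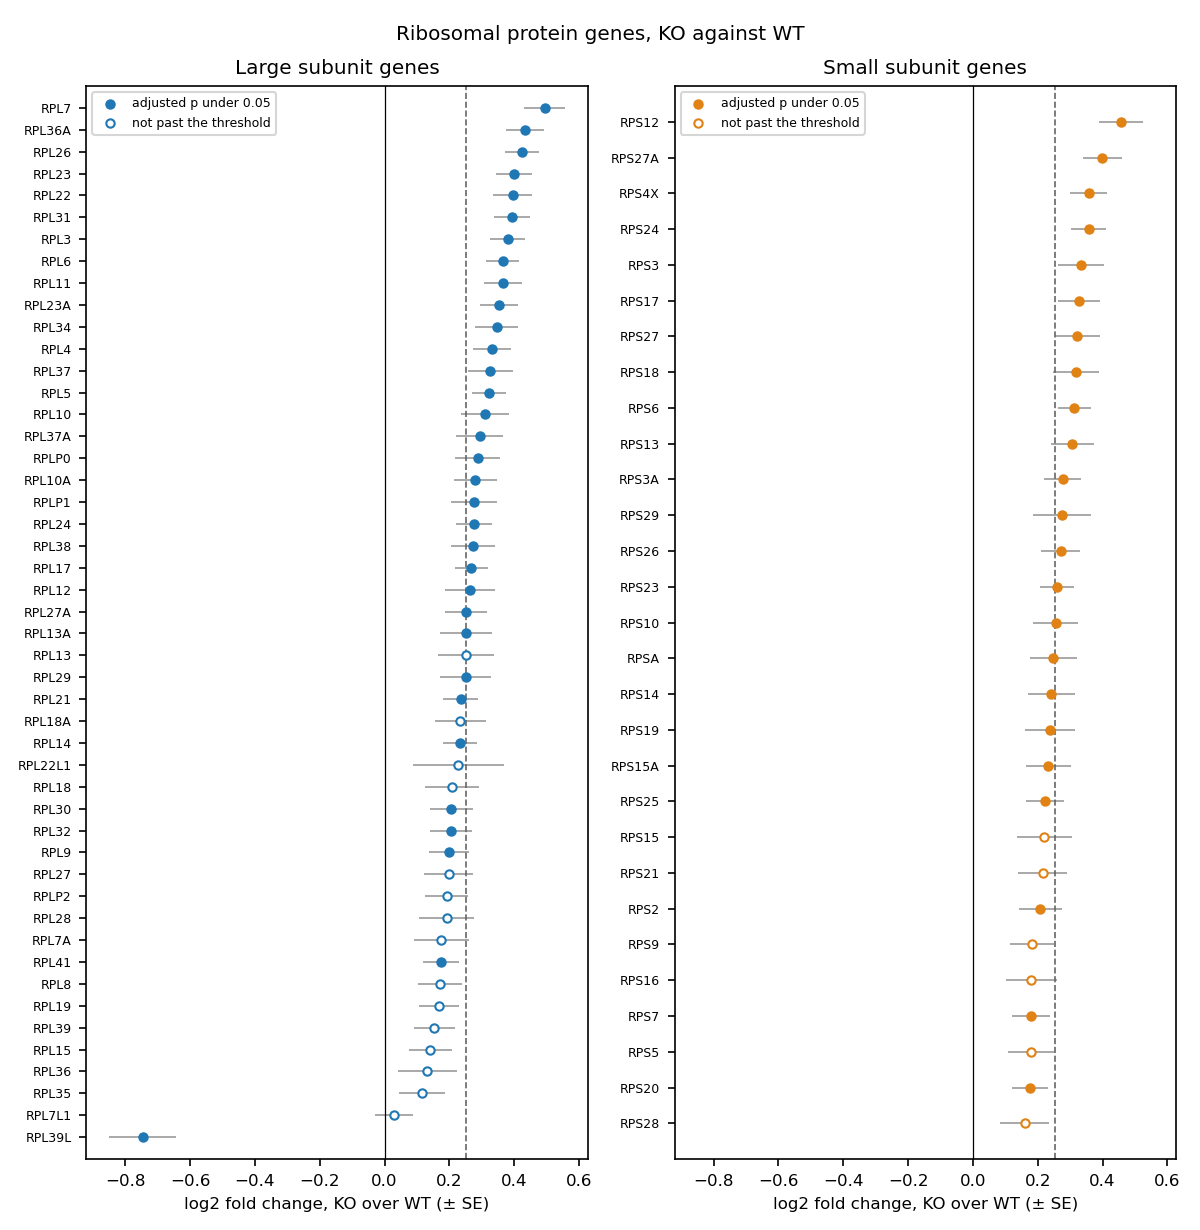
Log2 fold change of 77 of the 79 members, KO over WT, with bars of ± 1 SE from edgeR's quasi-likelihood fit (3 libraries per genotype), for 48 large subunit genes on the left and 29 of the 31 small subunit genes on the right. Filled points passed an adjusted p of 0.05, and the dashed line marks the median of all 79 members (0.25). RPL39L at -0.75 is the single gene drawn below 0.

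The share of each library's counts that fell on ribosomal protein genes went in the same direction. It is scaled by the library total alone, without TMM factors. The share was 8.24%, 6.98% and 7.56% in KO replicates 1, 2 and 3, against 6.79%, 6.43% and 6.60% in WT replicates 1, 2 and 3. All KO libraries were above all WT libraries, but KO replicate 2 was close to WT replicate 1. The means were 7.59% ± 0.633 in KO and 6.61% ± 0.178 in WT (SD, n = 3 each; two-sided exact permutation test, p = 0.1, the smallest that 3 against 3 allows). Large subunit genes took 4.89%, 4.16% and 4.49% in KO, against 4.03%, 3.81% and 3.91% in WT. Small subunit genes took 3.35%, 2.82% and 3.07% in KO, against 2.76%, 2.62% and 2.69% in WT.

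The ratio of large to small subunit counts was 1.46, 1.47 and 1.46 in KO, against 1.46, 1.46 and 1.46 in WT, with means of 1.465 ± 0.00602 in KO and 1.458 ± 0.00325 in WT (SD, n = 3 each). The genotypes overlapped in this ratio (two-sided exact permutation test, p = 0.2). They did not overlap with counts summed from the transcript files, with means of 1.533 in KO and 1.522 in WT. That ratio also leaves out RPS27 of the small subunit. Whether the missing gene or the source of counts made the difference was not tested. With pseudogene counts added the genotypes did not overlap either, with means of 1.490 in KO and 1.479 in WT (two-sided exact permutation tests, p = 0.1 for both, the smallest possible). The TPM scale divides by transcript length. On it the members without RPS27 made up 23.1%, 20.2% and 21.7% of the TPM assigned to genes in KO libraries. In WT libraries they made up 19.6%, 18.96% and 19.1%.

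**Figure D2:**
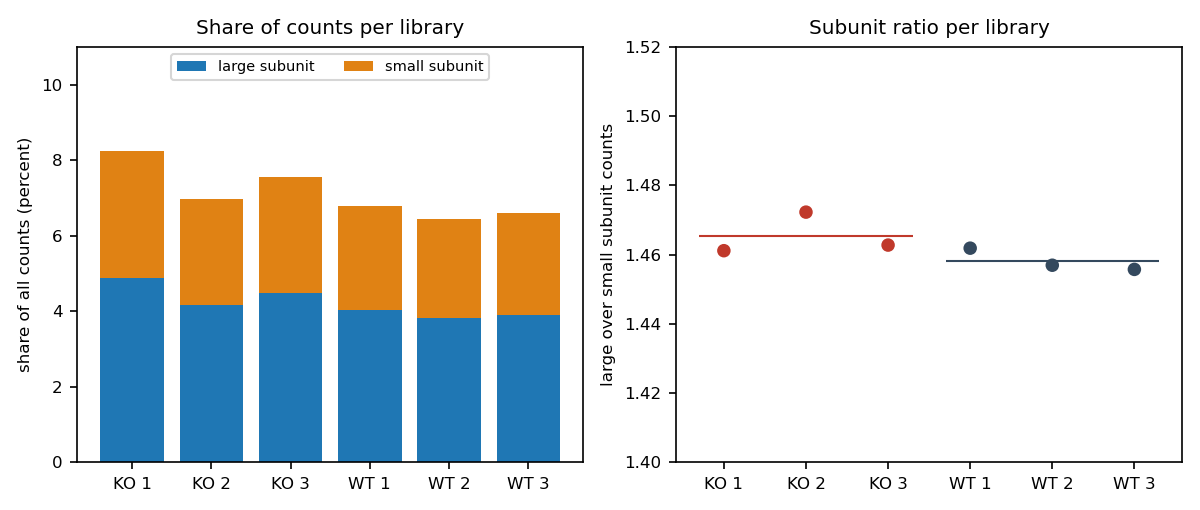
Left, share of all counts on large and small subunit genes in each library (percent, stacked bars from 0), with the 3 KO libraries left of the 3 WT libraries. Right, ratio of large to small subunit counts per library, with a line at the mean of each genotype; the axis does not start at 0. The stacked share runs from 6.98% to 8.24% in KO and from 6.43% to 6.79% in WT, and the ratio, from the gene table's counts, overlaps between the genotypes.

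Among large subunit members the largest rise was that of RPL7, an RNA-binding protein of the 60S subunit. Its level was 673, 762 and 696 CPM in KO, against 494, 501 and 517 CPM in WT, and the log2 fold change was 0.49 ± 0.06 (SE; edgeR adjusted p = 0.00018). KO replicate 2, the KO library with the lowest share of ribosomal protein counts, had the highest value for this gene. RPL26, which lies near the exit of the peptide tunnel, had 689, 664 and 670 CPM in KO, against 508, 499 and 502 CPM in WT (0.42 ± 0.05, edgeR adjusted p = 0.000153). The 2 genotypes were far apart here relative to their spread, with SDs of 12.7 CPM in KO and 4.45 CPM in WT. RPL23, a protein of the subunit interface that can bind MDM2, had a log2 fold change of 0.40 ± 0.06, and RPL6 one of 0.36 ± 0.05, each with the KO libraries above the WT libraries (edgeR adjusted p = 0.000387 and 0.000392).

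RPL5 and RPL11 join the 5S ribosomal RNA in the particle that binds MDM2 when ribosome assembly fails. RPL11 had 887, 809 and 862 CPM in KO, against 648, 652 and 687 CPM in WT. RPL5 had 775, 797 and 771 CPM in KO, against 638, 615 and 623 CPM in WT. Both rose, by 0.36 ± 0.06 and 0.32 ± 0.05 on the log2 scale (edgeR adjusted p = 0.000914 and 0.00103), and neither overlapped between the genotypes.

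The stalk of the large subunit, on which elongation factors dock, is built from RPLP0, RPLP1 and RPLP2. RPLP0 had 2813, 2307 and 2551 CPM in KO, against 2103, 2060 and 2119 CPM in WT, and RPLP1 had 1188, 1001 and 1060 CPM in KO, against 934, 848 and 900 CPM in WT. They rose by 0.29 ± 0.07 and 0.28 ± 0.07 (edgeR adjusted p = 0.0112 and 0.0156). Without WT replicate 2 neither passed (0.0553 and 0.0871), and without WT replicate 3 RPLP1 did not (0.0510). RPLP2 had a log2 fold change of 0.19 ± 0.07 and did not pass (edgeR adjusted p = 0.0548).

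RPL36A, a protein of the tRNA exit site, was nearly constant across the KO libraries. It had 198, 198 and 196 CPM in KO, against 149, 148 and 143 CPM in WT (0.43 ± 0.06, edgeR adjusted p = 0.000293). Its pseudogenes in the table carried 152% as many counts as the gene itself, so that the division of reads between them is uncertain. With these counts added to RPL36A the change was 0.47. The corresponding figures were 98.5% for RPL9 and 91.2% for RPL23A, both higher in KO. Over all members, 105 pseudogenes of 44 members added 2.11% to 2.31% to the members' counts.

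The small subunit was led by RPS12, a protein of the beak of the 40S head. It had 315, 316 and 295 CPM in KO, against 237, 207 and 230 CPM in WT (0.46 ± 0.07, edgeR adjusted p = 0.000585). RPS27A, made as a fusion with ubiquitin, had 393, 409 and 386 CPM in KO, against 305, 285 and 311 CPM in WT (0.40 ± 0.06, edgeR adjusted p = 0.000624). In both genes the 3 KO libraries lay close together and above every WT library.

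RPS24, a gene mutated in Diamond-Blackfan anaemia, had 901, 913 and 872 CPM in KO, against 692, 681 and 724 CPM in WT (0.36 ± 0.05, edgeR adjusted p = 0.000636). The X-linked RPS4X rose by 0.36 ± 0.06, and RPS6, the substrate of the S6 kinases downstream of mTOR, by 0.31 ± 0.05 (edgeR adjusted p = 0.000951 and 0.00111). In all of these the KO libraries lay above the WT libraries, and the calls held in every setting tried. RPS18, in the head of the 40S subunit, rose by 0.32 ± 0.07 (edgeR adjusted p = 0.00745).

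Levels between genes were compared in TPM, summed over the transcripts of each gene. Over the 78 members with a TPM value, mean levels ran from 80.4 to 9087 TPM with a median of 2406 TPM. RPL41, the shortest ribosomal protein, stood at the top with 9370 ± 384 TPM in KO and 8804 ± 88.1 TPM in WT (SD, n = 3 each). Also among the highest, RPS2 had 5926 ± 464 TPM in KO and 5399 ± 71.9 TPM in WT. RPL39, a small protein lining the exit tunnel, had 5671 ± 340 TPM in KO and 5388 ± 81.3 TPM in WT, and RPS18 had 5892 ± 523 TPM in KO and 4989 ± 149 TPM in WT. In KO, the levels of RPS2, RPS18 and RPL39 lay within each other's spread, and in WT those of RPS2 and RPL39 did. RPS27 has no value on this scale, because its main transcript is not in GENCODE 29.

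These most abundant members were not those with the largest changes. RPL41 rose by 0.17 ± 0.06 and RPS2 by 0.21 ± 0.07 on the log2 scale (edgeR adjusted p = 0.0423 and 0.0432), and both lost the call with library size alone and when any single library other than KO replicate 2 was left out. RPL39 had a log2 fold change of 0.15 ± 0.06 and did not pass (edgeR adjusted p = 0.0988). RPL35 at 0.12 ± 0.07 and RPL36 at 0.13 ± 0.09 were also low (edgeR adjusted p = 0.278 and 0.332).

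The 3 paralogs of restricted expression among the members stood apart in level, and 1 of them in direction. RPL39L, a paralog of RPL39 best known from testis, had 21.8, 24.9 and 22.9 CPM in KO, against 35.1, 39.0 and 42.8 CPM in WT. Every KO value was below every WT value, and the log2 fold change was -0.75 ± 0.10 (edgeR adjusted p = 0.000343), a call kept in every setting tried. On the TPM scale it fell to 58.3 ± 4.35 in KO, against 102 ± 9.01 in WT (SD, n = 3 each). RPL39L lies at chr3:187120948-187139496 on GRCh38.p14, and its neighbours moved with it. Of 17 other genes tested within 2 Mb, 10 fell and 1 rose, with a median of -0.46. The part of this stretch in the fall of RPL39L was not tested.

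RPL22L1, a paralog of RPL22, had 23.4, 32.8 and 25.1 CPM in KO, against 20.9, 22.3 and 26.3 CPM in WT (0.23 ± 0.14, edgeR adjusted p = 0.283). The genotypes overlapped. RPL7L1, a paralog of RPL7 with a part in ribosome assembly, had 250, 269 and 260 CPM in KO, against 256, 251 and 256 CPM in WT. Its log2 fold change was 0.03 ± 0.06 (edgeR adjusted p = 0.774; -0.027 with library size alone), and the genotypes overlapped.

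To ask which members moved against the group, the fit was repeated with the summed member counts of each library as its size. This scaling holds the members' median near 0 (-0.003) and turns their rise into a fall of other genes (median over all genes -0.25). The fit can therefore show single members that depart from the group, but not whether the group moved or was unusually even. In this fit 0 members were higher and 2 lower, against 8.35% of all genes higher and 32.8% lower, shares that the scaling itself shifts. RPL39L was 1 of the 2 (-0.99 ± 0.13, edgeR adjusted p = 0.00064). At an unadjusted p under 0.05 there were 11 members. The share of all genes at that threshold was not computed, so this count is no result about the members. DESeq2 likewise gave 0 higher and 2 lower, against 7.11% of all genes higher and 26.5% lower. The median absolute change against the group was 0.07 on the log2 scale. Without KO replicate 1 the number higher was 9 (11.4%), near the 9.25% of all genes in that fit. Without KO replicate 3 or WT replicate 2 the number lower was 1, RPL39L, against 20.8% and 21.0% of all genes.

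The KO libraries differed among themselves in how far the members were raised. The median log2 level of the members over the WT mean was 0.36 in KO replicate 1, 0.15 in KO replicate 2 and 0.25 in KO replicate 3, against 0.03, -0.04 and 0.02 in WT replicates 1, 2 and 3. KO replicate 1 had the highest value among the KO libraries for 67 of 79 members, and KO replicate 2 the lowest for 62. The subunits moved together within a library; in KO replicate 2, where they were furthest apart, the median was 0.14 for the large and 0.17 for the small subunit. The chi-square per gene between 2 libraries, which is about 1 for sampling noise alone, was 90.0 to 338 over the members for the 3 pairs of KO libraries and 10.0 to 30.3 for the 3 pairs of WT libraries. Over all tested genes it was 7.08 to 22.7 for KO pairs and 4.27 to 9.34 for WT pairs. At a given fold difference this value grows with the count, and most members have high counts. It therefore cannot show whether members varied more than other genes.

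**Figure D3:**
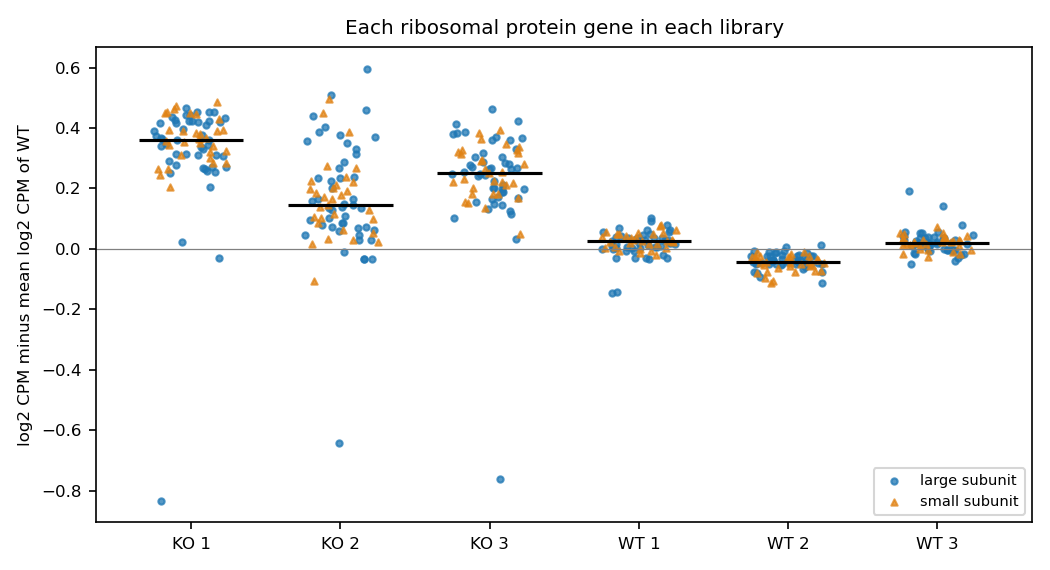
Log2 CPM of each member in each library minus the mean log2 CPM of that member in WT, with KO libraries left of WT libraries. Points are the 79 genes, by subunit, and black lines the medians (0.36, 0.15 and 0.25 in KO, 0.03, -0.04 and 0.02 in WT). KO replicate 2 shows the widest spread, and the lowest point in each KO library is RPL39L.

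The ratios between KO libraries went with the base composition and with the level of the transcripts, and the parts of the 2 were not separated. The log2 ratio of KO replicate 1 over KO replicate 2 rose with the GC content of the member's most abundant transcript (Pearson's r = 0.64, Spearman's rho = 0.70 over 78 genes, which share the 2 libraries). It also rose with the log of the mean TPM (r = 0.68, rho = 0.50). For KO replicate 1 over KO replicate 3 the values were r = 0.42 and rho = 0.45 with GC, and r = 0.59 and rho = 0.45 with the log of the mean TPM. Transcript GC ran from 39.3% to 63.1%. In the 39 members with GC above the median, KO replicate 2 was 0.09 above the WT mean, and in the 39 others 0.22, whereas KO replicate 1 was 0.36 and 0.35 above it. Of the GC-rich 39 members 21 were called in KO against WT, and of the others 35, against 26.0% of all genes tested. Chromosome 19 holds 12 members with a median GC of 58.4%, against 49.0% elsewhere, and 2 of these 12 were called, RPL13A and RPS19, against the same 26.0%. With the trend of each library with GC removed, a setting chosen after seeing the data, the median was 0.27 for the GC-rich members and 0.27 for the others, and 68 members were higher, against 17.4% of all genes.

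**Figure D4:**
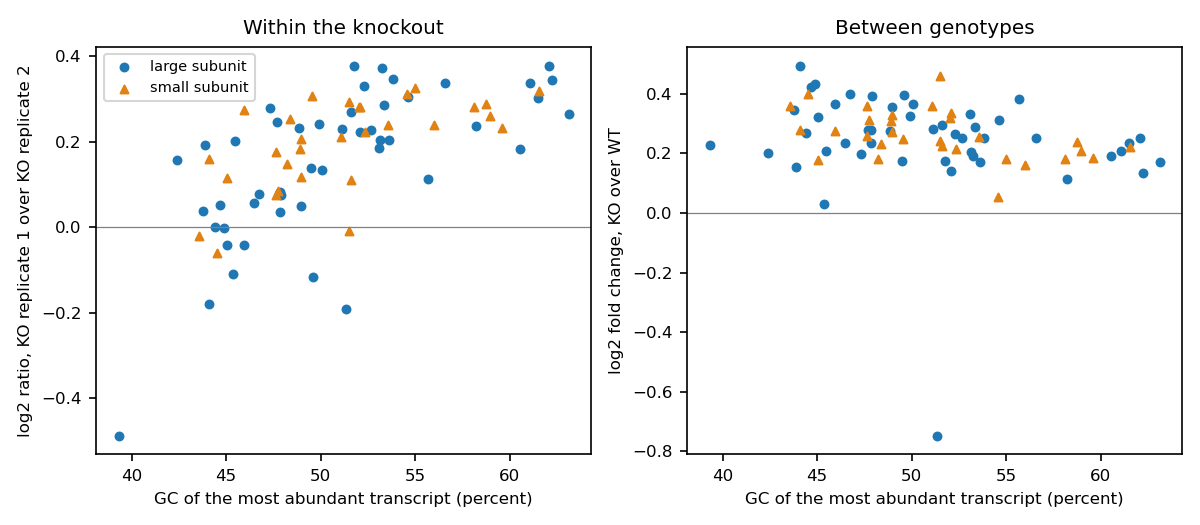
GC content of each member's most abundant transcript (percent) against the log2 ratio of KO replicate 1 over KO replicate 2 (left) and against the log2 fold change, KO over WT (right), for 78 members. The ratio between the KO libraries rises with GC (r = 0.64), while between genotypes the relation is weaker and runs the other way (r = -0.23); the point at -0.75 is RPL39L.

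Other features that could move a group of short, abundant mRNAs were measured beside it. Among genes that are not members, those with a TPM-weighted transcript length under 1000 bases had a median log2 fold change of -0.05, with 6.45% higher. Those over 4000 bases had one of 0.11, with 24.9% higher. The members had a median length of 628.5 bases by their most abundant transcript, which is a different measure. They went opposite to the other genes with short transcripts. The 2075 other genes with at least 100 CPM had a median of 0.01, with 17.1% higher. Mitochondrially encoded genes took 6.42%, 7.501% and 6.96% of counts in KO, against 6.94%, 6.91% and 6.98% in WT, with the lowest share in KO replicate 1 and the highest in KO replicate 2. The part of these features in the members' change was not tested further.

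The transcript files showed how each gene's output was divided. Coding transcripts held 92.8%, 92.5% and 92.8% of the members' reads in KO, against 92.8%, 92.8% and 92.9% in WT (two-sided exact permutation test, p = 0.1, the smallest possible). RPS24, RPL22L1, RPL23A and RPL17 were singled out after their values were seen, because they had transcripts whose share of the gene differed by at least 5 percentage points with no overlap between the genotypes. They came from 129 transcripts of 78 members with a mean share of at least 5% in 1 genotype. Of these 129, 24 did not overlap, and 6, in these 4 genes, also differed by 5 points. The share among transcripts of other genes was not computed. These counts therefore cannot show whether the members differed from other genes in this. In RPL22L1 such a transcript had 72.5, 48.3 and 19.7 reads in KO replicates 1, 2 and 3 and 0 in WT. In RPL17 the main transcript made up 87.9%, 87.3% and 86.3% of the gene in KO, against 82.3%, 82.3% and 80.9% in WT.

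In RPS24 the division lay at a short exon. This gene has a cassette exon of 22 bases near its end that opens with the stop codon of the main reading frame, at chr10:78040204-78040225 on the plus strand of GRCh38. It is printed because the transcripts that carry it end their protein inside it, with capitals for the stop codon.
RPS24 cassette exon: TGAgctggagattggatcacag
Without it, reading runs on for 9 coding bases (3 codons) into the last exon. Transcripts without the exon made up 4.38%, 4.54% and 4.39% of RPS24 in KO, against 9.35%, 10.9% and 10.52% in WT. The KO libraries were all low and nearly equal, with means of 4.44% ± 0.0881 in KO and 10.2% ± 0.796 in WT (SD, n = 3 each; two-sided exact permutation test, p = 0.1, the smallest possible). In TPM, the forms without the exon had 153 ± 5.74 in KO and 283 ± 22.8 in WT, and those with it 3287 ± 55.2 in KO and 2477 ± 39.4 in WT. The forms also differ at their 5′ start, and Salmon's division of reads between transcripts was not checked against reads that span the junctions.

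Genes of the same translation programme were compared next, from the same fit. Over all genes tested 14.5% were called higher and 11.5% lower. Of 18 other genes with a TOP motif, chiefly translation factors, 12 rose and 0 fell, with a median log2 fold change of 0.27. EEF1A1, the factor that brings tRNA to the ribosome, averaged 12373 ± 525 CPM in KO and 8928 ± 237 CPM in WT (SD, n = 3 each; 0.47 ± 0.05, edgeR adjusted p = 4.44e-05). Its partner EEF1B2 changed by 0.60 ± 0.06, the RNA-binding protein gene HNRNPA1 by 0.48 ± 0.06 and the initiation factor gene EIF3L by 0.37 ± 0.06, all upward (each with an edgeR adjusted p of at most 0.000924). Of 18 host genes of small nucleolar RNAs, many of which also begin with a TOP motif, 6 rose and 0 fell, against the same 14.5% and 11.5%. Their median was 0.13. They were led by SNHG29 (0.54 ± 0.07), SNHG5 (0.35 ± 0.07), GAS5 (0.29 ± 0.07) and SNHG19 (0.61 ± 0.15).

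Of 4 ribosomal proteins that the naming rule leaves out, RACK1 alone passed, a scaffold protein on the 40S head, against 26.0% of all genes tested. It had 1938, 1537 and 1743 CPM in KO, against 1059, 964 and 978 CPM in WT, and rose by 0.80 ± 0.08 (edgeR adjusted p = 3.93e-05). RACK1 lies on chromosome 5, where 19 of 23 other genes tested within 2 Mb rose and 0 fell, with a median of 0.67. The part of this stretch in its rise was not tested.

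Genes that build ribosomes did not move as a group. Of 59 biogenesis factors 4 rose and 4 fell, against 14.5% of all genes tested higher and 11.5% lower. The other 51 missed the threshold, and the median was -0.02. NHP2, a protein of the pseudouridylation particles, rose by 0.52 ± 0.06 and the nucleolar protein gene NPM1 by 0.72 ± 0.11 (edgeR adjusted p = 0.000143 and 0.000827). Both lie on chromosome 5 among neighbours with medians of 0.67 and 0.77. LSG1, a GTPase of late 60S maturation, fell (-0.56 ± 0.07) among neighbours on chromosome 3 with a median of -0.49. RRP9, a component of the U3 particle, fell as well (-0.37 ± 0.10, edgeR adjusted p = 0.0169). Of 14 RNA polymerase I subunits and factors 1 rose, POLR1E (0.30 ± 0.08, edgeR adjusted p = 0.0204), against the same 14.5%. Of 11 ribosomal protein chaperones and quality control genes 3 rose, again against 14.5%, with a median of -0.06 over the list. These were BTF3 (0.25 ± 0.06), NACA (0.19 ± 0.06) and HUWE1 (0.26 ± 0.08).

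Of 17 MYC and mTOR regulators 1 rose and 1 fell, against 26.0% of all genes tested called in either direction. MYC, a driver of ribosomal protein gene transcription, averaged 46.1 ± 3.24 CPM in KO and 36.8 ± 0.73 CPM in WT (SD, n = 3 each; 0.32 ± 0.08, edgeR adjusted p = 0.0160). DDIT4, an inhibitor of mTOR complex 1, averaged 23.7 ± 4.36 CPM in KO and 48.9 ± 3.13 CPM in WT (-1.05 ± 0.13, edgeR adjusted p = 0.000152). Mitochondrial ribosomal proteins serve the separate ribosome of that organelle. Of 78 tested 1 rose (MRPS10, 0.41 ± 0.09), against 14.5% of all genes tested, and 14 fell, against 11.5%. Their median was -0.12, against 0.00 over all genes. MRPL34 (-0.47 ± 0.08), MRPL17 (-0.48 ± 0.09) and MRPS34 (-0.32 ± 0.07) fell (edgeR adjusted p = 0.00137, 0.00275 and 0.00702).

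**Figure D5:**
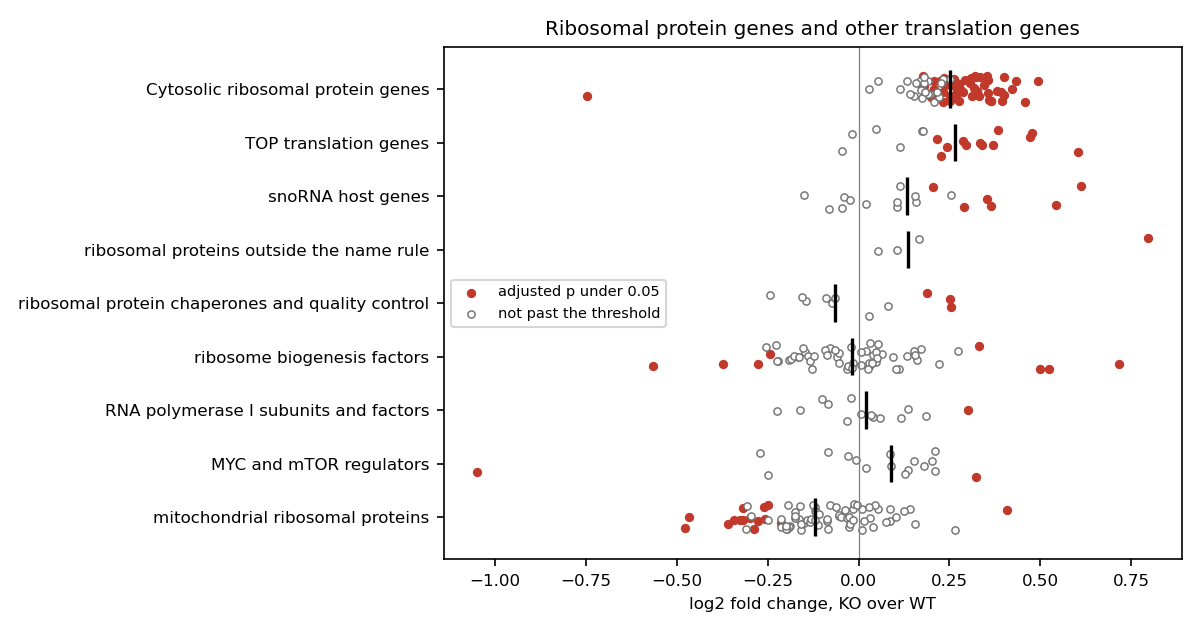
Log2 fold change, KO over WT, of each gene in the ribosomal protein group and in 8 lists of related genes; red points passed edgeR's adjusted p of 0.05 and black lines are list medians. The medians are 0.25 for the ribosomal protein genes, 0.27 for TOP translation genes, 0.13 for snoRNA host genes, -0.02 for biogenesis factors and -0.12 for mitochondrial ribosomal proteins.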

How the data were processed

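RNA-seq was made from 3 DNAJC12-KO and 3 WT libraries of SH-SY5Y cells with TRIzol, Ribo-Zero depletion and a stranded kit, per the labels' protocols. Salmon 1.10.0, cutadapt 3.5, DESeq2 1.42.1, FastQC and the build GRCh38.p14 appear in the submitters' processing notes, without roles, and no annotation release is given. Values in the deposited gene table are estimated counts that the authors rounded to whole numbers and did not normalize; these were used as they stand. Per the file headers, the deposited transcript files hold estimated counts and TPM for 251955 transcripts, of which 201667 were assigned to genes through GENCODE 29 (94.2% to 94.6% of reads). Salmon divides reads among similar transcripts, so genes with near-identical copies are uncertain.

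Repeated rows were removed, leaving 20668 of 21071. The genotype comparison used edgeR 4.0.16 in R 4.3.3 with filterByExpr, TMM, two-sided quasi-likelihood F-test, Benjamini-Hochberg adjustment over 16403 genes, threshold 0.05. SE is the size of the log2 fold change divided by the root of F. Group values per library were compared by exact permutation tests (scipy 1.17.1). Promoter sequences are RefSeq's. Alternatives used DESeq2 1.42.0, limma 3.58.1 voom, other scalings and filters, a replicate block, each library left out, transcript-based counts, and pseudogene counts added. Scripts were tested on simulated data.

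The members and lists were chosen with earlier results of these data known. All members are counted. Values are given for the 6 of each subunit with the smallest adjusted p, the 5 highest and 5 lowest fold changes, the 5 highest mean TPM, paralogs of restricted expression, the MDM2-binding and stalk members, up to 5 highest and 5 lowest relative to the group and, of each other list, the 4 smallest adjusted p where called. RPS24's transcripts, RPL9, RPL23A, RPL17, RPL13A and RPS19 were added after their values were seen. GC content, and the length of members, are those of each gene's most abundant GENCODE 29 transcript. The length of other genes is the mean over their transcripts, weighted by TPM. Total counts per library bound the precision of counts; no interval for counting error is given, since the spread between replicates exceeded it. Some genes that this rule names are not reported here; tallies over all members and lists include them.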

Additional observations from a re-analysis of the deposited data

How the results depend on the processing

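The median log2 fold change of the members stayed above 0 in all settings, between 0.20 and 0.31. The number of members higher in KO was 56, against 14.5% of all genes. It ran from 30 to 74 with 1 library left out, against 10.5% to 15.6%. At an adjusted p of 0.01 it was 32, against 9.76%, and with library size alone 38, against 12.5%. Length-corrected transcript counts gave 40, against 10.4%, and summed transcript counts 48, against 13.1%. With pseudogene counts added it was 56, against 14.5%, and with TMM computed without the members 56, against 14.6%. It was 57 by limma-voom, against 14.7%, and 58 by DESeq2, against 11.7%. The number lower stayed at 1. Relative to the summed member counts, the number higher was 0 and ran from 0 to 9 with 1 library left out, and the number lower from 1 to 3. In those fits 6.52% to 9.25% of all genes were higher and 20.8% to 43.4% lower. With pseudogene counts added 1 member was higher, against 8.34% of all genes. Same-numbered KO and WT libraries did not deviate together (correlations of 0.06, -0.03 and -0.07), and KO replicate 2 correlated best with WT replicate 3. Over all pairs the correlations ran from -0.08 to 0.10, too small to settle whether same-numbered libraries were made together, which the labels do not say. With the replicate block 64 members were higher, against 15.5% of all genes, and 2 relative to the summed member counts, against 8.78%.

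Of the 18 named members called, 14 kept the call in every setting, the others being RPL41, RPS2, RPLP0 and RPLP1. The direction turned for RPL7L1 with library size alone (-0.027), where it was not called. The KO minus WT difference in share, 0.985 percentage points of counts, was 2.47 points of TPM without RPS27 (1.49 large, 0.976 small). The difference in share of counts ran from 0.660 to 1.29 with 1 library left out. With 1 library left out, 10.5% to 15.6% of all genes were called higher and 7.21% to 12.8% lower. Numbers called in the other lists then ran from 7 to 13 of 18 (TOP translation genes) and 2 to 6 of 18 (snoRNA hosts). They ran from 3 to 11 of 59 (biogenesis), 0 to 2 of 14 (RNA polymerase I) and 1 to 4 of 11 (chaperones). For MYC and mTOR they ran from 1 to 4 of 17, and outside the naming rule from 1 to 2 of 4. Mitochondrial ribosomal proteins had 6 to 18 of 78. With library size alone 1 chaperone gene was called, against 12.5% of all genes higher and 14.9% lower. The cause of these shifts was not tested, beyond the fewer libraries in those fits. RPS27 is nearly unmeasured in the transcript-based settings.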
